A study of Bos taurus with 12 samples.

Results

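The granulosa cells of subordinate follicles (SF) collected at day 7 were compared with those of dominant follicles (DF) collected at day 3 of the bovine estrous cycle. Each group was held by 3 libraries, so that 6 of the 12 small RNA libraries of the study entered the contrast. The other 6 libraries, from SF at day 3 and DF at day 7, were used only to place the result. Both groups came from healthy Simmental heifers that were synchronized with a prostaglandin F2α analogue and a GnRH analogue, and different heifers were slaughtered on each day. Follicles were classed as SF or DF by their diameter, with a higher limit at day 7 than at day 3. The upper limit of SF at day 7 was the lower limit of DF at day 3, so the groups of this contrast meet in size. The paper also proposes that follicles may not yet be of dominant size at day 3. The granulosa cells were sedimented from follicular fluid pooled by follicle size. Each library is labelled a biological replicate, but the heifers behind a pool are not named in the labels, so p values measure the spread between these pools. SF day 7 and DF day 3 differ in follicle class, in day and in heifers together, and the 3 cannot be told apart within this contrast. In bulk samples of this kind, fewer cells of a type and less RNA per cell cannot be told apart either.

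A miRNA guides the silencing complex to messenger RNAs that pair with its seed, the stretch near its 5′ end, and lowers their translation and stability. Granulosa cells surround the oocyte, respond to FSH and LH and make estradiol and, after ovulation, progesterone. When a wave of follicles grows in cattle, 1 follicle becomes dominant and the granulosa cells of the others stop dividing and undergo atresia. In this tissue miR-21, miR-132 and miR-212 are known as miRNAs that rise after the LH signal, and miR-202 is known as a miRNA of the gonads.

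The deposited values were raw read counts, 1 per mature miRNA and precursor. Where a mature name, of 755, was listed with several precursors, the entry with most reads in the 12 libraries was kept. The 6 libraries then held between 233412 and 405129 reads on known miRNAs. A share of 3 reads, taken as the lowest share that can be seen, was between 0.000741% and 0.00129% of a library, which covers counting error only. The replicates differed by more than counting error. The chi-square per degree of freedom between 2 replicates was 104 and 96.7 for SF day 7 replicate 1 against replicates 2 and 3, 21.1 between those 2, and 34.7, 37.3 and 17.1 in DF day 3. Abundant miRNAs weigh most in this value. With each of the 187 miRNAs with a mean of at least 10 reads weighted alike, the root mean square deviation from the group mean on the log2 scale was 0.45, 0.43 and 0.27 in SF day 7 replicates 1, 2 and 3 and between 0.22 and 0.26 in DF day 3, so replicates 1 and 2 deviated almost equally. Counting a miRNA as detected when 2 or more replicates held a read, 314 miRNAs were detected in SF day 7 and 318 in DF day 3, and 289 of these were detected in both. The 25 detected in SF day 7 alone had at most 2.67 reads per library on average, and the 29 detected in DF day 3 alone at most 6.67. The miRNA with the most reads among them was bta-miR-141, a miRNA of epithelial cells, with 1, 6 and 13 reads in DF day 3 against 1, 0 and 0 in SF day 7. None of the miRNAs detected in a single group passed the test described next with the edgeR fit, while DESeq2 called bta-miR-141 lower in SF day 7. The miRNAs found in both groups held at least 99.97% of the reads of every library.

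Of the 343 miRNAs tested, 21 (6.12%) were differentially expressed, 16 (4.66%) increased and 5 (1.46%) decreased in SF day 7. Differential expression required a log2 fold change of 1 or more in either direction, together with a p value up to 0.05 and a false discovery rate (FDR) up to 10% in edgeR's quasi-likelihood test of the raw counts. A positive value means a higher level in SF day 7. Among miRNAs with a mean of at least 10 reads, 18 of 187 (9.63%) were differentially expressed. For 85 of the 343 (24.8%) the normalized counts of the groups did not overlap, with SF day 7 above for 51 (14.9%) and below for 34 (9.91%), and this was so for 20 of the 21 differentially expressed miRNAs, bta-miR-1271 being the exception. The increased miRNAs held 1.23%, 3.62% and 2.22% of the reads of the SF day 7 libraries and between 0.433% and 0.575% of those of DF day 3. Most of this was bta-miR-21-5p in SF day 7, and without it the shares were 0.408%, 0.896% and 0.710% against between 0.178% and 0.225%. The decreased ones held between 0.216% and 0.290% of the reads in SF day 7 and between 0.524% and 0.762% in DF day 3. Normalized counts are reads divided by the size factor of the library, and fold changes are given with their standard error. Scaling by library size alone called 11 miRNAs higher and 6 lower, and moved the median log2 fold change of all tested miRNAs from 0.03 to -0.16.

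**Figure D1:**
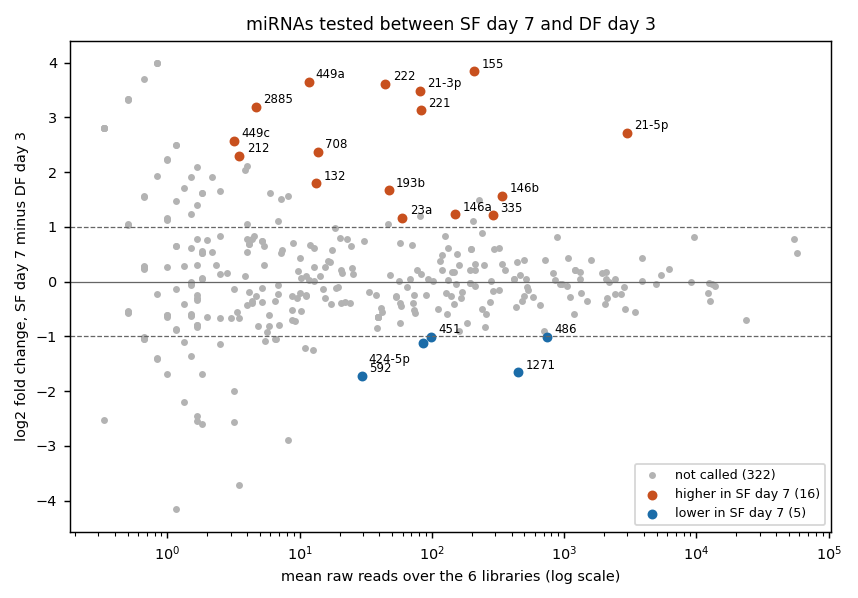
The log2 fold change between SF day 7 and DF day 3 (vertical axis) is plotted against the mean raw reads over the 6 libraries (horizontal log axis), with 1 point for each of the 343 miRNAs tested and dashed lines at log2 fold changes of 1 and -1. The 16 increased miRNAs (red) reach 3.84 for bta-miR-155, the 5 decreased ones (blue) reach -1.72 for bta-miR-592, and the widest grey points lie at low read numbers.

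The largest increase was that of bta-miR-155, which is made from a non-coding host transcript and is best known from activated immune cells. Its normalized count was 149.8, 569 and 444 in the 3 SF day 7 replicates and 22.3, 21.9 and 36.1 in those of DF day 3. The lowest SF day 7 library, replicate 1, was still above every DF day 3 library. In the test its log2 fold change was 3.84 ± 0.48 (SE, FDR = 0.00425), and with 1 library left out at a time it ranged from 3.42 to 4.24.

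Both arms of the miR-21 precursor were increased. Bta-miR-21-5p, a miRNA known to restrain apoptosis, was the most abundant of the increased miRNAs. It was read at 2262, 8003 and 4882 normalized counts in SF day 7 against 687, 745 and 835 in DF day 3, a log2 fold change of 2.72 ± 0.39 (FDR = 0.00447). The passenger arm, bta-miR-21-3p, had 53.9, 229.2 and 159.9 normalized counts in SF day 7 against 9.25, 11.9 and 18.04 in DF day 3. Its log2 fold change was 3.48 ± 0.53 (FDR = 0.00521). For both arms the order of the SF day 7 replicates was the same, with replicate 2 highest and replicate 1 lowest, and the groups did not overlap. There were 42.0, 34.9 and 30.5 reads of the 5p arm for each read of the 3p arm in SF day 7 and 74.3, 62.6 and 46.3 in DF day 3. These ratios did not overlap between the groups, and their difference was not tested.

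Bta-miR-221 and bta-miR-222 share a seed, lie next to each other in the genome and are known to act on the cell cycle inhibitor CDKN1B (p27). Normalized counts of bta-miR-222 were 38.4, 125.5 and 79.9 in SF day 7 against 3.85, 4.39 and 12.0 in DF day 3. Those of bta-miR-221 were 47.5, 244.8 and 140.9 against 16.2, 18.8 and 13.0. For both miRNAs every SF day 7 library was above every DF day 3 library, and replicate 1 was again the lowest of its group. Bta-miR-222 changed by 3.61 ± 0.56 (FDR = 0.00521) and bta-miR-221 by 3.13 ± 0.54 (FDR = 0.00945) on the log2 scale. The number of bta-miR-221 reads per bta-miR-222 read was between 1.24 and 1.95 in SF day 7 and between 1.083 and 4.29 in DF day 3, so these ratios overlapped.

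The pair of bta-miR-132 and bta-miR-212, which is known to be induced by cyclic AMP and CREB and by LH in granulosa cells, was also increased, at low read numbers. Bta-miR-132 had 12, 19 and 28 raw reads in SF day 7 against 3, 11 and 7 in DF day 3. Normalized for library size factor these were 11.0, 19.7 and 27.98 against 2.31, 6.90 and 7.01, with a log2 fold change of 1.797 ± 0.51 (FDR = 0.0758). For bta-miR-212 the raw reads were 5, 6 and 6 against 1, 2 and 1, and the log2 fold change was 2.29 ± 0.62 (FDR = 0.0714). Neither overlapped between the groups. With 17 reads in all against 4, the ratio of bta-miR-212 was 5.41 with an exact 95% counting interval from 1.76 to 22.1. Each of the pair kept its call in 1 of the 6 fits with a library left out, the one without SF day 7 replicate 1.

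The miR-146 family is known to be induced by NF-κB and to act on TRAF6 and IRAK1 in a feedback on inflammatory signals. Bta-miR-146b was at 331, 481 and 604 normalized counts in SF day 7 and at 143.3, 162.4 and 160.3 in DF day 3. Its log2 fold change was 1.56 ± 0.22 (FDR = 0.00447), with the smallest standard error among the increased miRNAs, and the groups were well apart. Bta-miR-146a was at 128.8, 317.4 and 125.9 in SF day 7 and at 75.5, 100.9 and 64.1 in DF day 3, so that replicates 1 and 3 of SF day 7 lay only a little above the highest DF day 3 library. Its log2 fold change of 1.23 ± 0.38 (FDR = 0.0983) fell to 0.60 without SF day 7 replicate 2. Bta-miR-146a kept its call in 1 of the 6 fits with a library left out, the one without SF day 7 replicate 1. In a fit of all 12 libraries its log2 fold change was 1.24 ± 0.47 (FDR = 0.175) and it was not called. The sequences of miR-146a and miR-146b are close, and reads could have been assigned to either.

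Bta-miR-449a and bta-miR-449c belong to a cluster that shares its seed with miR-34 and is known from ciliated epithelia and cell cycle arrest. Raw reads of bta-miR-449a were 5, 34 and 25 in SF day 7 against 1, 1 and 4 in DF day 3, and those of bta-miR-449c were 3, 4 and 9 against 1, 1 and 1. The log2 fold change was 3.65 ± 0.87 (FDR = 0.0466) for bta-miR-449a and 2.57 ± 0.77 (FDR = 0.0901) for bta-miR-449c. The groups did not overlap, but these folds rest on few reads in DF day 3. In sums over the group, the ratio was 13.6 (exact 95% counting interval 5.90 to 38.3) for bta-miR-449a and 6.78 (1.94 to 36.3) for bta-miR-449c. Bta-miR-449a kept its call in 2 and bta-miR-449c in 1 of the 6 fits with a library left out. The miR-34 members of the same family had the opposite sign without passing the test. Bta-miR-34a was at 10.05, 6.22 and 2.00 normalized counts in SF day 7 against 10.8, 15.7 and 17.04 in DF day 3 (log2 fold change -1.25 ± 0.51, FDR = 0.203). Bta-miR-34c, with 4, 0 and 1 reads in SF day 7 against 7, 9 and 28 in DF day 3, had a log2 fold change of -2.89 ± 0.99 (FDR = 0.126) and was called lower by DESeq2.

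Another 5 miRNAs were increased. Bta-miR-193b, which lies beside miR-365 and is known as a suppressor of cell growth, was at 33.8, 109.9 and 59.0 normalized counts in SF day 7 against 20.03, 21.3 and 21.04 in DF day 3 (log2 fold change 1.67 ± 0.42, FDR = 0.0515). Bta-miR-708, a miRNA of an intron of TENM4, was at 5.48, 33.2 and 27.98 against 5.39, 3.76 and 3.01 (2.37 ± 0.65, FDR = 0.0714). In this miRNA SF day 7 replicate 1 was level with the highest DF day 3 library, at 6 reads against 7. Bta-miR-335, which lies within the imprinted gene MEST, was at 257.6, 347.5 and 495.6 against 151.8, 181.2 and 129.3 (1.21 ± 0.24, FDR = 0.0176). Bta-miR-23a, of the miR-23a, miR-27a and miR-24 cluster, was at 52.1, 103.7 and 72.9 against 23.9, 36.4 and 40.08 (1.16 ± 0.33, FDR = 0.0795). In normalized counts none of these overlapped between the groups. Bta-miR-193b, bta-miR-708 and bta-miR-23a kept their call in 1 of the 6 fits with a library left out, the one without SF day 7 replicate 1, and bta-miR-335 in 5. Without SF day 7 replicate 2 the log2 fold change of bta-miR-193b was 1.09. Bta-miR-2885, a miRNA numbered in cattle within SYT7, was 1 of 3 increased miRNAs with a mean under 10 reads, with 6, 8 and 11 reads in SF day 7 against 2, 0 and 1 in DF day 3. The summed ratio was 10.6 with an exact 95% counting interval from 3.23 to 54.8, and the log2 fold change was 3.19 ± 0.77 (FDR = 0.0466), called in 3 of those 6 fits.

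**Figure D2:**
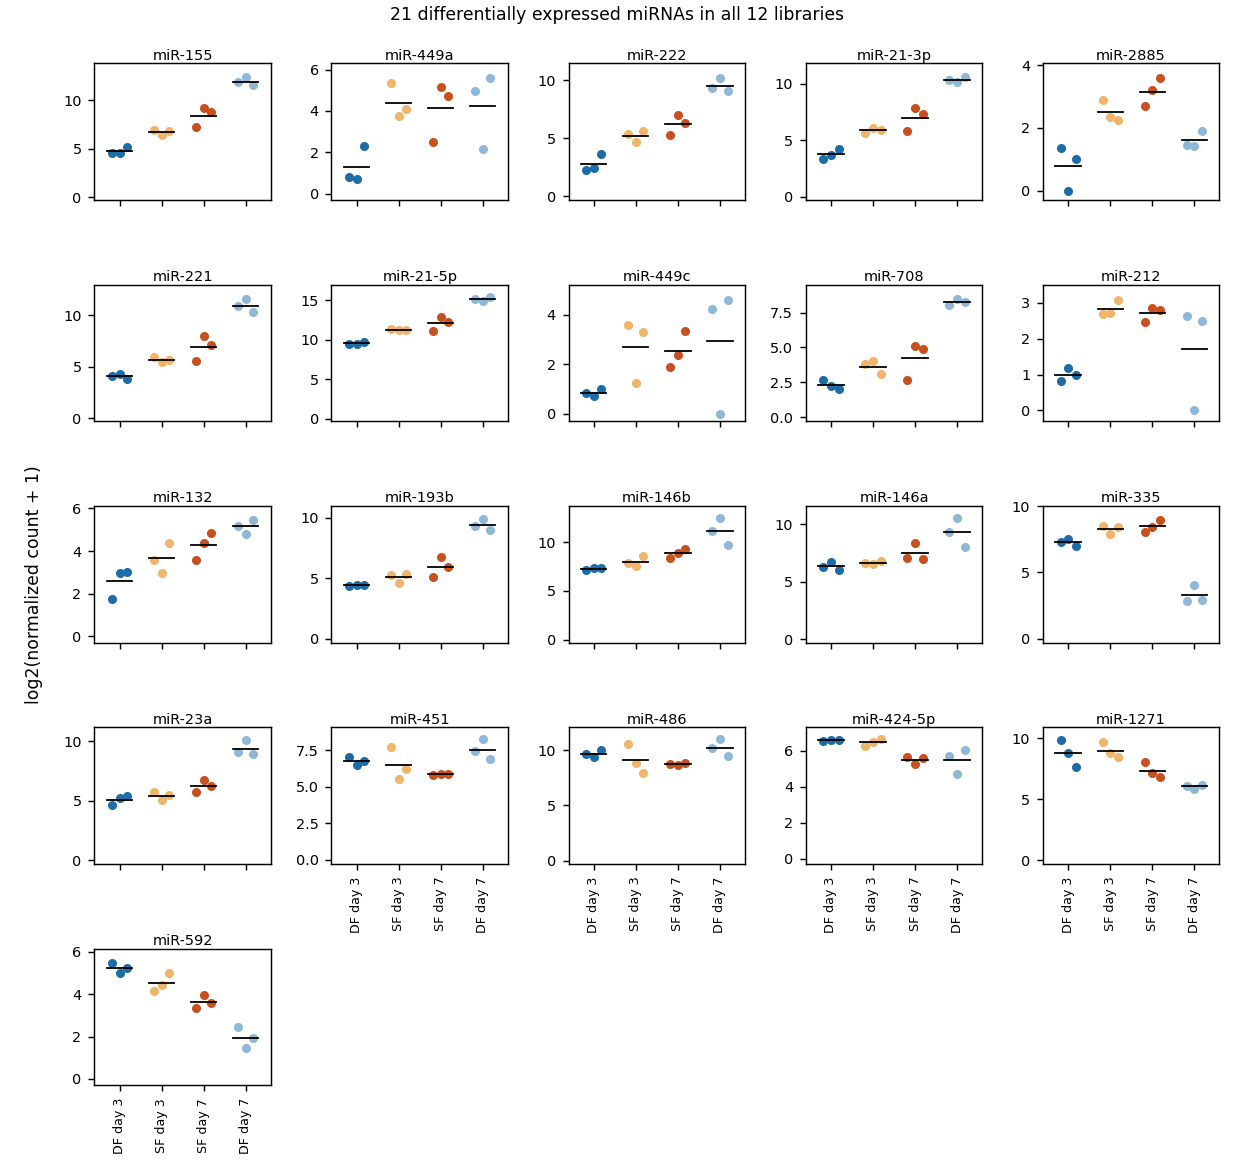
Each panel shows log2(normalized count + 1) of 1 of the 21 differentially expressed miRNAs in all 12 libraries, in the order DF day 3, SF day 3, SF day 7 and DF day 7, with a point for each library and a bar at the mean of the log2 values of the group. SF day 7 (red) lies above DF day 3 (dark blue) in all 16 increased miRNAs, and for bta-miR-1271 the 2 groups overlap.

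The log2 fold changes of the 5 decreased miRNAs lay between -1.72 and -1.004. Bta-miR-592, within an intron of the glutamate receptor gene GRM8, was at 9.14, 14.5 and 11.0 normalized counts in SF day 7 against 43.9, 31.3 and 36.1 in DF day 3, a log2 fold change of -1.72 ± 0.33 (FDR = 0.0154). Bta-miR-424-5p, a cell cycle miRNA that shares its seed with miR-15 and miR-16, was at 50.3, 38.4 and 47.0 against 94.8, 95.9 and 98.2. Its log2 fold change was -1.13 ± 0.22 (FDR = 0.0154). In both miRNAs all SF day 7 libraries were below all DF day 3 libraries, and the DF day 3 libraries differed little among themselves for bta-miR-424-5p.

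Bta-miR-451 and bta-miR-486 are known from red blood cells. The first was at 53.9, 58.1 and 57.0 normalized counts in SF day 7 against 130.2, 90.3 and 109.2 in DF day 3 (log2 fold change -1.004 ± 0.23, FDR = 0.0406). The second was at 420.3, 391.0 and 471 against 826, 663 and 1003 (-1.01 ± 0.18, FDR = 0.0124). The groups did not overlap, with SF day 7 lower throughout. Both sit at the threshold of 1, and bta-miR-451 kept its call in 2 and bta-miR-486 in 3 of the 6 fits with a library left out. In the fit of all 12 libraries, which called 5.03% of the tested miRNAs between these groups, their log2 fold changes were -0.96 ± 0.44 (FDR = 0.302) and -0.96 ± 0.47 (FDR = 0.319). Bta-miR-144, which lies next to bta-miR-451 and is also a red blood cell miRNA, had no read in SF day 7 and 2, 3 and 2 reads in DF day 3, which is at the limit of this depth.

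Bta-miR-1271, a miRNA within ARL10 that shares its seed with miR-96, had the widest spread among the decreased miRNAs. It was at 267.7, 143.1 and 111.9 normalized counts in SF day 7 against 955.5, 449.5 and 197.4 in DF day 3, so DF day 3 replicate 3 lay below SF day 7 replicate 1. The log2 fold change was -1.66 ± 0.50 (FDR = 0.0905), and without DF day 3 replicate 1 it was -0.93 and not called.

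Some of the differentially expressed miRNAs are neighbours. All 21 were found in the RefSeq genes of the assembly ARS-UCD2.0, which is not the assembly of the counts, so no positions are given. A window of 10 kb around the gene held another miRNA gene for 10 of them, and 12 lay within the span of another gene. The genes of bta-miR-449a, bta-miR-449b and bta-miR-449c lie together in CDC20B, those of bta-miR-221 and bta-miR-222 together in a non-coding gene, and those of bta-miR-132 and bta-miR-212 beside each other. The neighbours of bta-miR-424-5p are the miR-450, miR-542 and miR-503 genes, and among these bta-miR-450b had a log2 fold change of -0.90 ± 0.26 (FDR = 0.0795), bta-miR-450a -0.52 ± 0.30 (FDR = 0.328), bta-miR-542-5p -1.22 ± 0.43 (FDR = 0.137) and bta-miR-503-3p -0.20 ± 0.75 (FDR = 0.901). Beside bta-miR-23a, bta-miR-27a-3p had 0.83 ± 0.25 (FDR = 0.0901). Beside bta-miR-193b, bta-miR-365-3p had 0.65 ± 0.31 (FDR = 0.286). None of the 6 neighbours given here with values met all 3 thresholds.

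A further 10 miRNAs met the FDR threshold with a fold change below the limit, 4 higher and 6 lower in SF day 7. The smallest p among them was that of bta-miR-92a, a member of the miR-17-92 cluster known for driving proliferation. Bta-miR-92a was at 9149, 10633 and 13070 normalized counts in SF day 7 and at 5878, 6464 and 5859 in DF day 3, with a log2 fold change of 0.81 ± 0.14 (FDR = 0.00949). Bta-miR-202, the gonad miRNA, was at 2537, 2269 and 2300.3 in SF day 7 and at 3209, 3766 and 3253 in DF day 3 (-0.56 ± 0.12, FDR = 0.0240). Both were separated between the groups, bta-miR-92a higher and bta-miR-202 lower in SF day 7. Bta-miR-10b, the HOXD cluster miRNA, was at 52618, 60184 and 74296 against 45543, 32664 and 28525 (0.77 ± 0.19, FDR = 0.0466). Bta-miR-652 was at 131.6, 94.4 and 124.9 against 191.9, 196.8 and 186.4 (-0.76 ± 0.19, FDR = 0.0489), and bta-miR-148b at 991, 699 and 719 against 1181, 1246 and 1126 (-0.60 ± 0.16, FDR = 0.0606). These 3 did not overlap either.

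None of the 10 most abundant miRNAs was differentially expressed. Together the 10 highest of each library held between 65.5% and 73.1% of its reads. Bta-miR-26a took 20.2% ± 4.28 of the reads in SF day 7 and 16.2% ± 1.44 in DF day 3 (SD, n = 3), and its libraries overlapped (log2 fold change 0.53 ± 0.20, FDR = 0.188). Bta-miR-10b took 20.9% ± 2.03 against 14.0% ± 2.56. Bta-miR-99b, which lies with let-7e and miR-125a, took 5.21% ± 1.96 against 9.52% ± 0.904, but SF day 7 replicate 1, at 7.48%, was close to the DF day 3 libraries (log2 fold change -0.70 ± 0.20, FDR = 0.0758). Bta-miR-92a took 3.66% ± 0.373 against 2.41% ± 0.197. The log2 fold changes of bta-miR-27b, bta-let-7f, bta-miR-191, bta-let-7i, bta-let-7a-5p and bta-miR-125a lay between -0.35 and 0.00, each with an FDR of at least 0.223.

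By family, the members called lay in a few lists. Both tested members were called higher in the miR-21, miR-221 and miR-222, miR-146, and miR-132 and miR-212 lists, beside the single member of the miR-155 list. Over all tested miRNAs, 4.66% were called higher and 1.46% lower, and these shares stand beside the counts that follow. The miR-34 and miR-449 list had 2 of 5 members called higher, with a median log2 fold change of 2.57 and a range from -2.89 to 3.65. Of the miR-23, miR-27 and miR-24 list 1 of 6 was called higher, with a median of 0.61, and of the miR-28, miR-151 and miR-708 list 1 of 4. There bta-miR-28, which shares its seed with bta-miR-708, was at 30.1, 75.7 and 44.0 normalized counts in SF day 7 against 49.3, 49.5 and 46.1 in DF day 3 (log2 fold change 0.02 ± 0.35, FDR = 0.980). The list of miR-15, miR-16 and their relatives had 1 of 9 called lower, bta-miR-424-5p, and a median of -0.24, beside 0.03 over all tested miRNAs. Its most abundant members were bta-miR-16b (-0.24 ± 0.15, FDR = 0.351), bta-miR-195 (-0.05 ± 0.15, FDR = 0.869) and bta-miR-15b (-0.36 ± 0.21, FDR = 0.328).

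The other lists had no member called. The 10 let-7 and miR-98 members lay between -0.36 and 0.22 with a median of -0.12, and the 7 miR-30 members had a median of -0.04. The 4 members of the miR-181 list had a median of 0.78, the 3 of miR-29 of 0.88, and the 5 of miR-199 and miR-214 of 0.59. The 3 members of miR-450 and miR-542 had a median of -0.90. Among the cattle miRNAs of the miR-2284 and miR-2285 families, 28 were tested with a median of -0.58, but only 22 of these names had different counts, since several names shared the same reads. The 47 other cattle-numbered miRNAs had a median of 0.07, the 14 of the miR-17-92 and miR-106b-25 clusters of 0.15 and the 14 of the imprinted DLK1-DIO3 cluster of 0.27. Scaling by library size alone turned the medians of the cattle-numbered miRNAs (-0.11), of the miR-17-92 clusters (-0.05) of miR-99, miR-100 and miR-125 (0.09 to -0.10), of miR-103 and miR-107 (0.03 to -0.18) and of miR-28, miR-151 and miR-708 (0.0011 to -0.20) negative, together with that of all tested miRNAs.

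**Figure D3:**
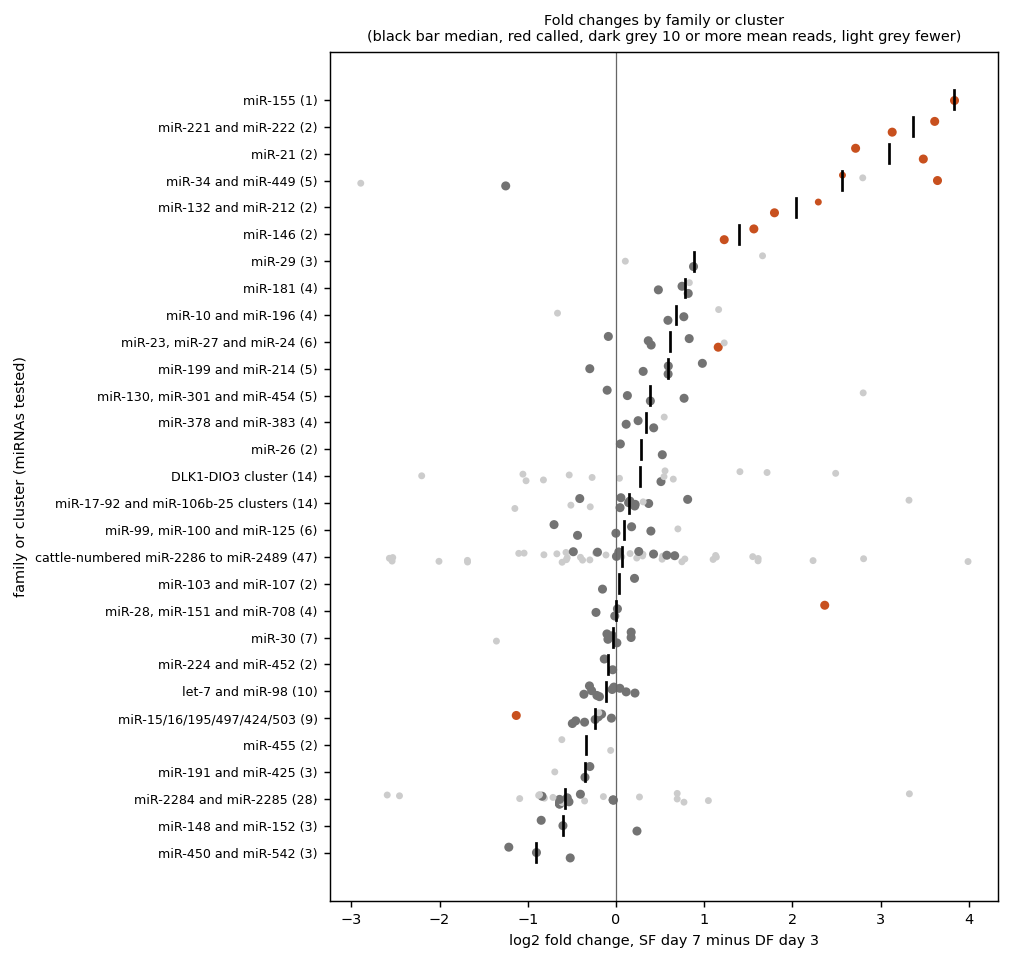
The log2 fold change of each tested miRNA is shown by family or cluster (vertical axis, number tested in parentheses), with a black bar at the median of the list. Differentially expressed miRNAs (red) lie in the miR-155, miR-221 and miR-222, miR-21, miR-34 and miR-449, miR-132 and miR-212, miR-146, miR-23, miR-28 and miR-15 lists, and the other lists hold none.

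The contrast can be divided through SF day 3 into a class step (SF day 3 minus DF day 3) and a day step (SF day 7 minus SF day 3). Another route runs through DF day 7, and the class and day parts of a miRNA depend on the route. The steps were taken from 1 fit of all 12 libraries. They share libraries with the contrast and with each other, so their values are set side by side and no agreement between them is drawn. The day step changes the heifers and the diameter limit of SF as well as the day. SF and DF of the same day came from the ovaries of the same set of heifers. The heifers behind each pool are not named, and the fit treats all libraries as independent. In the fit of 12 libraries 8 miRNAs, 2.12% of those tested, were called in the class step and 1, or 0.265%, in the day step.

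That 1 was bta-miR-155, with a log2 fold change of 2.00 ± 0.40 (FDR = 0.0161) in the class step and 1.87 ± 0.37 (FDR = 0.0453) in the day step. Its SF day 3 libraries were at 121.6, 84.2 and 111.5 normalized counts, below all SF day 7 and above all DF day 3 libraries. Bta-miR-222 had 2.56 ± 0.53 (FDR = 0.0161) in the class step and 1.09 ± 0.43 (FDR = 0.401) in the day step. The values of bta-miR-21-5p were 1.76 ± 0.30 (FDR = 0.00940) and 0.98 ± 0.30 (FDR = 0.161).

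By this route bta-miR-449a had 3.81 ± 0.95 (FDR = 0.0463) in the class step and -0.15 ± 0.69 (FDR = 0.995) in the day step. Bta-miR-335 had 1.02 ± 0.28 (FDR = 0.0766) and 0.23 ± 0.28 (FDR = 0.943). Of the decreased miRNAs, bta-miR-1271 had 0.02 ± 0.44 (FDR = 1) in the class step and -1.64 ± 0.46 (FDR = 0.161) in the day step, and bta-miR-424-5p had -0.12 ± 0.27 (FDR = 0.909) and -0.97 ± 0.28 (FDR = 0.161). Bta-miR-592 had -0.71 ± 0.33 (FDR = 0.327) and -0.97 ± 0.37 (FDR = 0.363). Through SF day 3, the class steps of bta-miR-155, bta-miR-222, bta-miR-21-5p, bta-miR-449a and bta-miR-335 and the day step of bta-miR-155 passed the thresholds. No other step given for this route did, and whether the 2 steps of a miRNA differed was not tested.

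At day 7 the dominant follicle had levels far from those of both groups for several of these miRNAs. DF day 7 was at 3656, 5347 and 3012 normalized counts of bta-miR-155, between 30584 and 44367 of bta-miR-21-5p and between 1276 and 3152 of bta-miR-221, all above SF day 7. In the fit of 12 libraries, SF day 7 minus DF day 7 was -3.37 ± 0.38 for bta-miR-155 (FDR = 2.56e-06) and -2.90 ± 0.31 for bta-miR-21-5p (FDR = 1.64e-06). In that comparison 32.8% of the tested miRNAs were called. Bta-miR-335 was at 6.14, 15.3 and 6.46 in DF day 7, below all SF day 7 libraries, with a log2 fold change of 5.41 ± 0.37 for SF day 7 minus DF day 7 (FDR = 3.79e-08). Bta-miR-424-5p was at 51.7, 25.6 and 64.6 in DF day 7, around the levels of SF day 7 (-0.10 ± 0.29, FDR = 0.794). By the route through DF day 7, the day step is DF day 7 minus DF day 3. It was 7.24 ± 0.47 for bta-miR-155 and 5.64 ± 0.36 for bta-miR-21-5p (each FDR = 3.33e-09). For bta-miR-335 it was -4.16 ± 0.37 (FDR = 9.39e-08). For bta-miR-449a it was 4.06 ± 0.93 (FDR = 0.0021), with -0.40 ± 0.68 (FDR = 0.647) for SF day 7 minus DF day 7. The class and day parts thus differed by route, and the routes were not compared by a test.

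Marker miRNAs of other cells were compared between the libraries as sums of normalized counts. The gonad list, led by bta-miR-202, summed to between 2386 and 2716 in SF day 7 and between 3358 and 3903 in DF day 3, and bta-miR-202 alone had between 2188 and 6008 reads in each library. Of the other gonad miRNAs, bta-miR-224 was at 100.9 to 176.3 normalized counts over the 6 libraries and bta-miR-383 had at most 5 reads. The leukocyte list summed to 189.1 and 213.8 in SF day 7 replicates 1 and 3, to 723 in replicate 2 and to between 118 and 166 in DF day 3, so that it did not overlap between the groups. Most of it was bta-miR-142-5p, at 155.3, 612 and 174.9 in SF day 7 against 131.0, 104.1 and 95.2 in DF day 3 (log2 fold change 1.498 ± 0.49, FDR = 0.117, called by DESeq2). The other arm, bta-miR-142-3p, had at most 1 read, and bta-miR-223, the defining miRNA of myeloid cells, at most 4 reads in any of the 6 libraries. Bta-miR-150, of lymphocytes, was at 32.9, 107.9 and 34.97 against 35.4, 13.8 and 35.07. SF day 7 replicate 2 was the highest library of the leukocyte, endothelium (226 against 63.1 to 105), smooth muscle (5037 against 2263 to 4076) and epithelium lists (868 against 75.8 to 219). In the last the sum was mostly bta-miR-182 and bta-miR-183, while bta-miR-96, bta-miR-200a, bta-miR-200b, bta-miR-200c and bta-miR-429 had at most 6 reads. Bta-miR-141 of the same list had 1, 0 and 0 reads in SF day 7 against 1, 6 and 13 in DF day 3. Its log2 fold change of -3.71 ± 1.34 (FDR = 0.147) was opposite in sign to those of bta-miR-182 (1.10) and bta-miR-183 (1.20). The part of these cells in the increases of bta-miR-155, bta-miR-21-5p, bta-miR-146a and the other increased miRNAs was not tested. Without SF day 7 replicate 2, the log2 fold change was 3.42 for bta-miR-155, 2.17 for bta-miR-21-5p and 2.46 for bta-miR-221, each still called.

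The erythrocyte list, of bta-miR-451, bta-miR-144 and bta-miR-486, summed to between 449.1 and 527.6 in SF day 7 and between 755 and 1114 in DF day 3. It holds 2 of the 5 decreased miRNAs, so the sum and those calls are the same measurement. In SF day 3 the same sum ranged from 323.2 to 1684, wider than the difference between SF day 7 and DF day 3.

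**Figure D4:**
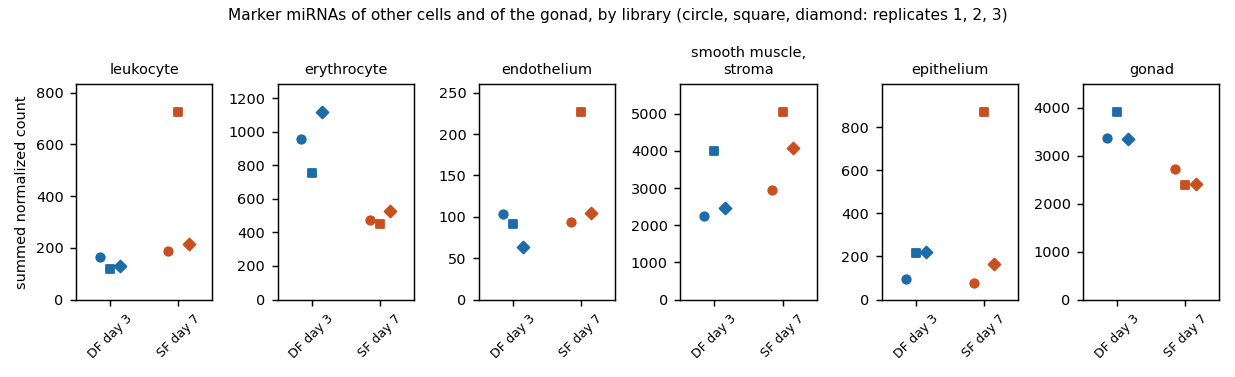
Summed normalized counts of marker miRNAs of 5 other cell types and of the gonad are shown for each DF day 3 (blue) and SF day 7 (red) library, with circle, square and diamond for replicates 1, 2 and 3. SF day 7 replicate 2 is the highest point in the leukocyte, endothelium, smooth muscle and epithelium panels, and the groups do not overlap in the leukocyte panel, where SF day 7 is higher, or in the erythrocyte and gonad panels, where it is lower.

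The number of differentially expressed miRNAs depended on single libraries. SF day 7 replicate 1 was the lowest of its group for 15 of the 16 increased miRNAs, and for 79 of the 187 tested miRNAs with a mean of at least 10 reads. Without it 34 miRNAs were called, 22 higher and 12 lower, and 19 of the 21 were among them. Bta-miR-450b (-1.32 ± 0.13), bta-miR-181a (1.05 ± 0.14) and bta-miR-29a (1.17 ± 0.18) were among the 15 added, with FDRs of 0.000368, 0.00258 and 0.00496. Without SF day 7 replicate 2 there were 10, without replicate 3 there were 9, and without DF day 3 replicates 1, 2 and 3 there were 13, 11 and 14. In the fits of all 6 libraries and of each set of 5, 8 miRNAs were called throughout. These were bta-miR-155, bta-miR-21-5p, bta-miR-21-3p, bta-miR-221, bta-miR-222 and bta-miR-146b, all increased, and bta-miR-424-5p and bta-miR-592, both decreased.

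**Figure D5:**
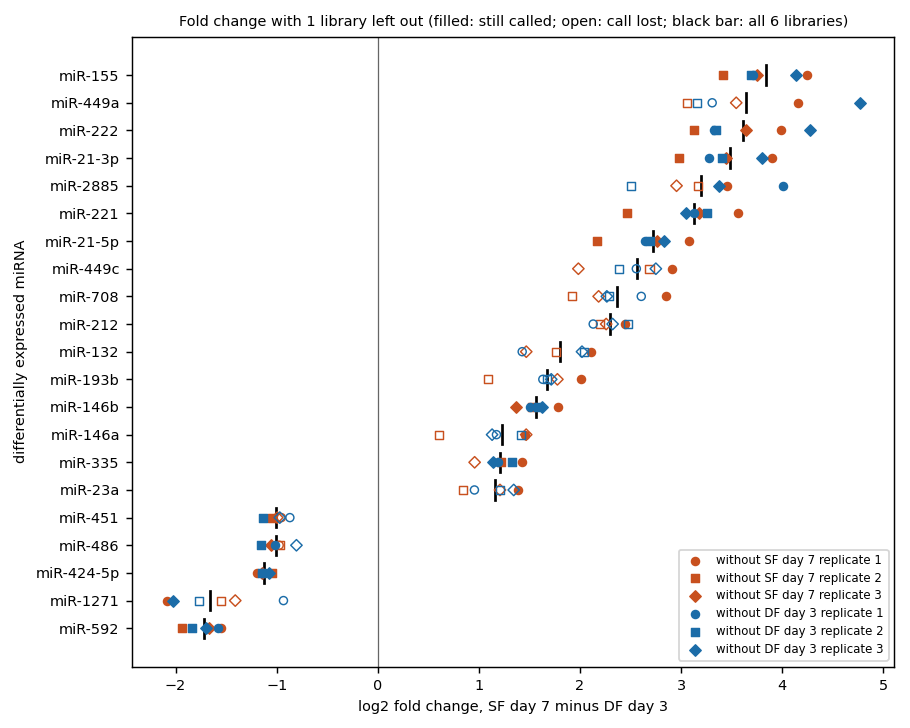
The log2 fold change of each of the 21 differentially expressed miRNAs is plotted with 1 library left out at a time (symbols, filled where the miRNA was still called) and with all 6 libraries (black bar). No symbol crosses 0, the 8 miRNAs named above have filled symbols throughout, and leaving out SF day 7 replicate 2 gave the lowest value of bta-miR-155, 3.42, and of bta-miR-21-5p, 2.17.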

How the data were processed

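Small RNA of bovine granulosa cells was sequenced by the authors on an Illumina HiSeq after TruSeq Small RNA preparation. The submitters' processing notes name CASAVA 1.8.0, FastQC and cutadapt. Per the study's methods, trimmed reads were aligned to the bovine genome UMD 3.1 and counted on known bovine miRNAs of miRBase with miRDeep2. The authors deposited raw read counts for each of 906 pairs of mature miRNA and precursor, without normalization. Groups and replicate numbers come from the sample labels.

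From these counts, 1 entry per mature name (755) was kept, that with the highest total over the 12 libraries. All 21 differentially expressed miRNAs have a single entry. A miRNA was tested when 2 or more of the 3 replicates of either group held a read. In R 4.3.3, the 6 libraries were scaled by RLE (median-of-ratios) factors and compared by the quasi-likelihood F test of edgeR 4.0.16, which is two-sided, with Benjamini-Hochberg adjustment over the 343 tested miRNAs (given as FDR). The study's thresholds were used. The study used DESeq2, which here (1.42.0) was an alternative. Fold changes carry a prior count of 0.125, and the standard error is the log2 fold change divided by the square root of F, an approximation. Normalized counts use size factors over all 12 libraries, so ratios of their means can differ from the fold changes. The steps come from 1 fit of 4 group means. The procedure was tested on simulated counts that had the same spread for every miRNA and in both groups. That test does not cover the wider spread between the SF day 7 replicates.

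Named are all differentially expressed miRNAs, the 10 most abundant, up to 4 members of each list with a call, the cell type markers and the 5 with the smallest p that met the FDR but not the fold threshold. Neighbours, further list members and miRNAs called in an alternative were named after their values were seen. The contrast, the lists and the markers were chosen with earlier results of these data known, and none of them is independent support. Alternatives were DESeq2, TMM, library size alone, other filters on low counts, all 12 libraries, other treatment of precursors, a block for the replicate number, a prior count of 2, an FDR of 5%, 2 stricter rules of detection and each library left out.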

Additional observations from a re-analysis of the deposited data

Results flagged for a closer look

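Some miRNAs had too few reads in SF day 7 and DF day 3 to be tested but were read in the libraries of DF day 7, which the contrast does not use. Of these, 5 are given here, which is not a full list. Bta-miR-184 averaged 121.7 reads there, with 129, 105 and 131 reads in the 3 replicates, against a single read in the 6 libraries of the contrast and 4, 0 and 0 in SF day 3. Bta-miR-1249 averaged 5.67 reads (2, 6 and 9), against 1 read in all in SF day 7 and none in DF day 3. Bta-miR-365-5p averaged 5.0 reads (4, 7 and 4), and bta-miR-2411-5p 4.33 reads (2, 7 and 4). Bta-miR-142-3p, a leukocyte miRNA, averaged 3.33 reads (5, 4 and 1), against 1 read in the 6 libraries of the contrast. No difference was tested for these miRNAs.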

How the results depend on the processing

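The counts of differentially expressed miRNAs, 21 in all with 16 higher and 5 lower, stayed within 1.5 times under DESeq2, TMM, library size alone, both other filters, all 12 libraries, summed precursors and a prior count of 2. All entries as listed gave 3 lower, and an FDR of 5% gave 13 in all and 9 higher. Leaving out 1 library gave 9 to 34 in all, 6 to 22 higher and 3 to 12 lower. For detection in SF day 7 alone (25) and DF day 3 alone (29), at least 5 reads gave 12 and 19, and leaving out 1 library gave 10 to 47 and 13 to 51. No called miRNA changed sign, and 8 were called in all 6 fits without a library and all 11 other alternatives.

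With the replicate number as a block, 20 miRNAs were called, 15 higher and 5 lower, 17 of them shared. The numbers do not pair the samples, since the 2 days used different heifers and same-numbered libraries had correlations of deviations of 0.0995, -0.14 and 0.16.

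Of 42 named miRNAs that were not called, 12 changed sign. Without 1 library the log2 fold changes ranged from -0.0722 to 0.0097 for bta-let-7f, -0.3075 to 0.1437 for bta-let-7i, -0.0759 to 0.0668 for bta-miR-125a, -0.0052 to 0.9965 for bta-miR-126-3p, -0.0508 to 0.0339 for bta-miR-151-3p, -0.5537 to 1.6075 for bta-miR-182, -0.6887 to 1.6944 for bta-miR-183, -0.1174 to 0.0748 for bta-miR-195, -1.0519 to 3.7517 for bta-miR-200a, -0.2957 to 0.1279 for bta-miR-224, -0.4499 to 0.2946 for bta-miR-28 and -0.4066 to 0.7642 for bta-miR-429. All 12 libraries gave 0.023 for bta-let-7i, 0.0382 for bta-miR-125a, 0.0024 for bta-miR-224 and 0.0273 for bta-miR-151-3p. Entries as listed gave 0.0043, 0.0239 and 0.0123 for bta-let-7i, bta-miR-125a and bta-miR-151-3p. Summed precursors gave 0.0027 for bta-miR-125a, and a minimum of 10 reads gave 0.0185 for it and 0.0043 for bta-miR-151-3p. Bta-miR-28 was at -0.0111 with TMM, -0.197 with library size alone and -0.0711 with the block. The cause was not tested. Depth limits miRNAs with few reads in DF day 3 most, such as bta-miR-2885, bta-miR-449c and bta-miR-212.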
